A study of Homo sapiens with 9 samples.

Results

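The peaks described here are the KAS-seq peaks on the arms of human chromosome 18. A peak was a member if its summit lay below position 15500000 or above position 20900000 of chromosome 18 (GRCh38), which leaves out the stretch around the centromere. This rule uses position only, and it kept 1147 of the 34247 peaks of the KAS list (3.35%). The stretch between the limits held the other 273 of the chromosome's 1420 peaks. The members nearest to the limits had summits at 15404906 and 15407935 on the short arm (fold enrichment 3.34 and 2.32) and at 20939362 and 20948040 on the long arm (6.06 and 5.42). Just outside, the nearest summits were at 15562219 and 15640716 (6.15 and 4.02) on the short-arm side, and at 20532432 and 20552432 (7.65 and 4.06) on the long-arm side.

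The study used HL-60, a human promyelocytic leukaemia cell line, in a differentiated state in which it resembles neutrophils. For the KAS library (1), NETosis was induced for 4 h, for which the KAS label itself states no agent or dose, and the culture was then given 5 mM N3-kethoxal for 10 min before the NET fraction was collected. For 4 thrombin pulldown libraries, cells received 500 nM PMA for 4 h and then 1 µM biotinylated alpha thrombin for 1 h, and 4 matching inputs were not analysed here. The labels name no separate cultures for the pulldown replicates, and their spread may be technical only. Since KAS was 1 library, the KAS peaks have no replicate check, and the only test is of their overlap with the 4 pulldown lists. Intervals beside counts and shares are exact 95% intervals that cover counting error only. The assay read DNA, so markers of the cell type could not be checked.

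Neutrophil extracellular traps (NETs) are webs of chromatin and granule proteins that neutrophils release when strongly stimulated. Phorbol myristate acetate (PMA), an activator of protein kinase C, is a common trigger in culture. In KAS-seq, N3-kethoxal reacts with guanines that are not base-paired, a biotin is attached to the azide, and the captured DNA marks places where the double helix was open. In living cells such places include gene starts and the transcription bubbles of RNA polymerase. Chromosome 18 is among the most gene-poor human autosomes, and HL-60 has been described with an additional copy of it. Copy number was not measured here.

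Few gene starts on chromosome 18 carried a member peak, and 4 of those that did are shown. There a KAS peak of this 1 library overlapped the window around a known start. RefSeq promoter windows (GRCh38.p14, 250 bases before to 50 after a start, written along the gene's strand) were held for 234 of the 270 protein-coding genes on the arms. Of their 365 windows, 15 windows (4.11%) of 13 genes shared a base with a member, against 1.11% of all such windows on the 22 autosomes. The 4 coding genes with the strongest of these peaks are printed 5′ to 3′ in lower case, with capitals on every motif match, and matches may overlap. The motif ATTCC is the repeat unit named in the study's title. Read on the other strand it becomes GGAAT, which was marked too. The motif GGG was marked because kethoxal tags guanine, and CCC marks it on the other strand. TXNL4A encodes a spliceosome component and its window lies at chr18:80033887-80034186 on the minus strand. COLEC12 encodes a scavenger receptor and its window lies at chr18:500652-500951 on the minus strand. ZNF236 encodes a zinc finger protein and its window lies at chr18:76822307-76822606 on the plus strand. MTCL1 encodes a microtubule crosslinking factor and its window lies at chr18:8705306-8705605 on the plus strand.
TXNL4A: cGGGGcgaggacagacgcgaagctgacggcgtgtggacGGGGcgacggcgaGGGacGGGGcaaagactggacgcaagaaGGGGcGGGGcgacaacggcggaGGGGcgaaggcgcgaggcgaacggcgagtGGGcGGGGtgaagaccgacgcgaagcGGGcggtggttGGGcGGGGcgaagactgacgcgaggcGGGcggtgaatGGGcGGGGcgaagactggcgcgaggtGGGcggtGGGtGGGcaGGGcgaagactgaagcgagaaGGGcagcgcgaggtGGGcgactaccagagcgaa
COLEC12: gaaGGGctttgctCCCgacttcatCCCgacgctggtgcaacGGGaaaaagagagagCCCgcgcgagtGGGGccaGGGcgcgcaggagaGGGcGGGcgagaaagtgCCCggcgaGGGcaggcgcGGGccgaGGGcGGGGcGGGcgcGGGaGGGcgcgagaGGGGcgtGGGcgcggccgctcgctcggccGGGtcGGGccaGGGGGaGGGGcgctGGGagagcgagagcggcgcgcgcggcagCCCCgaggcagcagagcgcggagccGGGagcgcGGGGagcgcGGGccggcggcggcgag
ZNF236: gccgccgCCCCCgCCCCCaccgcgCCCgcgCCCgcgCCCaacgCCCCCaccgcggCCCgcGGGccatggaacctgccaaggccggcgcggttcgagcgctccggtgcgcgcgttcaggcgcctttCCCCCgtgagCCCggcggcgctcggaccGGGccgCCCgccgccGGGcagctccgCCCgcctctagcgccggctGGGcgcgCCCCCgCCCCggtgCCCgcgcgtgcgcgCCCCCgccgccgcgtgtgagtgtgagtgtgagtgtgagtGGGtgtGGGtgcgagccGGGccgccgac
MTCL1: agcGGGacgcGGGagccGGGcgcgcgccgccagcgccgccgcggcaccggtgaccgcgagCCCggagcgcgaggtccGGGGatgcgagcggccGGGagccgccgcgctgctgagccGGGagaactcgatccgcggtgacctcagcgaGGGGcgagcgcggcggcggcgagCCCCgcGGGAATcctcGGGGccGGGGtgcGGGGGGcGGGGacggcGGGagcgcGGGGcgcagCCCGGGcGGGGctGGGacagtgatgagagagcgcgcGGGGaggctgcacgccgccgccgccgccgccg

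The peak over the TXNL4A window had a fold of 6.79 and shared 266 of its 300 bases. The COLEC12 window shared 236 bases with a peak of fold 6.58, and the ZNF236 window lay wholly inside a peak of fold 6.41 whose summit was at the start itself (distance 0). The MTCL1 window shared 165 bases with a peak of fold 6.17. Guanine runs lay on the printed strand in TXNL4A (30 GGG, 0 CCC), COLEC12 (30 and 6) and MTCL1 (29 and 4), and mostly on the other strand in ZNF236 (7 and 28). GC content was 72.3%, 79.7%, 82.7% and 83.0% in the order printed. The other coding genes with a window under a peak were FHOD3, LPIN2, GALNT1, SMAD2, ST8SIA3, ANKRD12, LDLRAD4, ZBTB14 and LOXHD1.

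Over all 19 chromosome 18 windows with a member peak, genes of any class included, GC content was 79.7% in the median. It was 52.3% over all 721 windows of the chromosome and 58.7% over the 33725 windows of the 22 autosomes. ATTCC was found on either strand in 3 of the 19 windows (15.8%), against 39.0% of chromosome 18 windows and 36.4% of all windows. GGG was found on either strand in 19 of 19 windows, against 99.2% and 99.5%, so this motif does not set the windows with a peak apart. These counts describe letters in windows of fixed length. Windows of like GC content were not compared, so the lower ATTCC share cannot be told apart from the higher GC content. Some of the 19 windows also overlap one another, such as the pairs at GALNT1 and SMAD2.

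The members had a density of 15.3 peaks per Mb over 74.9 Mb of arm (14.4 to 16.2). For a like comparison, the arms of every autosome were taken as its extent without the longest stretch free of protein-coding genes. On some autosomes (2, 4 and 21 among them) this stretch is not the centromere, so their arms still hold it. By that definition chromosome 18 held 1137 peaks on 74.3 Mb, and the other 21 autosomes held 29675 peaks at a pooled density of 11.4 per Mb (11.3 to 11.5). The ratio was 1.35 (1.27 to 1.43). Chromosome 18 ranked 7 of 22, below chromosomes 19 (42.1 per Mb), 22 (28.9), 20 (17.9), 16 (17.7), 17 (16.8) and 21 (16.2). The intervals of chromosomes 21 (15.0 to 17.5) and 17 (15.9 to 17.8) overlapped that of chromosome 18. The lowest density was 5.10 per Mb on chromosome 5, and the median of the other autosomes was 10.5.

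All autosomes with a higher peak density also had more genes per Mb. Chromosome 18 carried 3.64 protein-coding genes per Mb of arm, the lowest but for chromosome 13 at 3.54, while the median of the others was 6.46 and chromosome 19 had 27.1. It therefore had 4.21 peaks for each coding gene, the most of the 22 autosomes. The others ranged from 0.998 on chromosome 5 to 2.83 on chromosome 21, with a median of 1.62. Across the 22 autosomes, which share the library and its depth, peak density and gene density had Pearson's r = 0.88 and Spearman's rho = 0.712. Without chromosome 19, r was 0.671. A straight line through the other 21 autosomes gave 6.70 peaks per Mb at the gene density of chromosome 18, which is 8.61 below the density measured there. Of the other 21, only chromosome 22 lay further above that line (8.90).

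**Figure D1:**
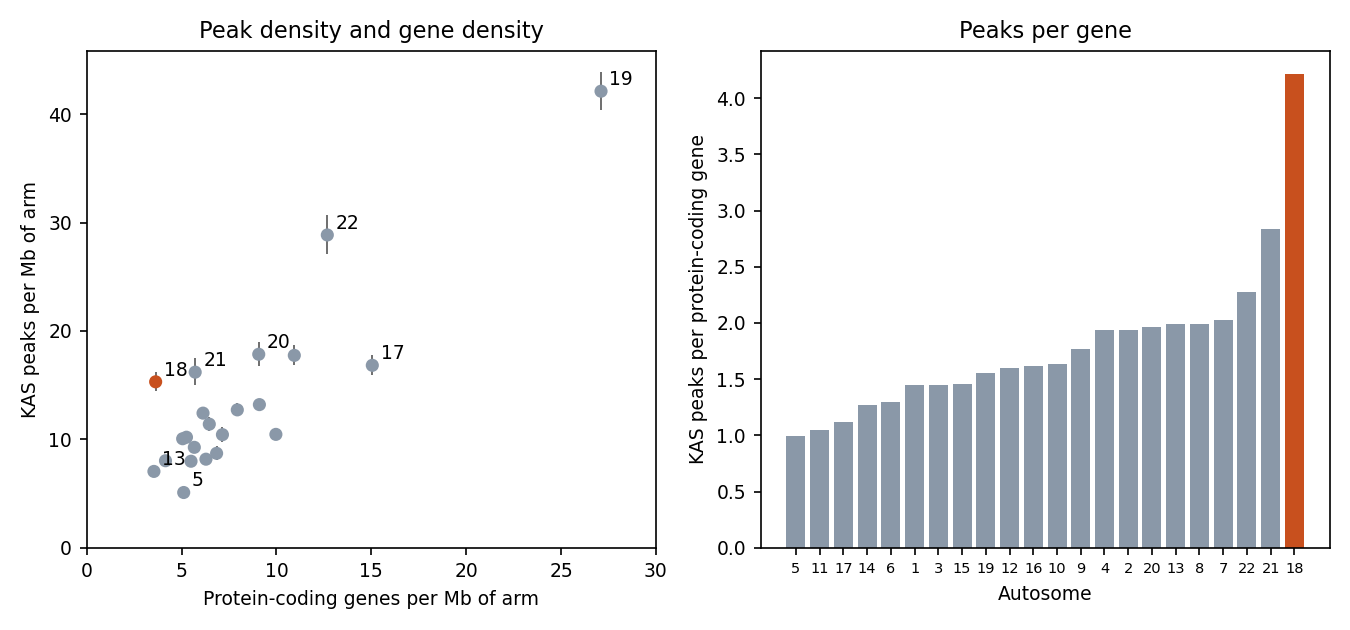
KAS peak density of each autosome's arms against its density of protein-coding genes (left, peaks and genes per Mb, vertical lines are exact 95% counting intervals) and KAS peaks per protein-coding gene in rising order (right, bars). Chromosome 18, in orange, sits at 3.64 genes and 15.3 peaks per Mb, and its bar of 4.21 peaks per gene is the tallest of the 22.

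The same comparison was made within classes of local gene density, in 1 Mb windows on the arms. The 74 windows of chromosome 18 held 4 to 49 peaks with a median of 13, and 0 were empty. The 2577 windows of the other autosomes had a median of 7 and reached 140, and 124 of them (4.81%) were empty. Windows at the centromere were left out on chromosome 18 but not on some other autosomes (2, 4 and 21 among them). Their part in these values was not tested. Here and in the 5 Mb steps, a gene start is the low-coordinate end of the gene span, because the gene table gives no strand. For genes on the minus strand it is therefore not the start of transcription. In windows with no coding gene start, the mean was 6.8 peaks on chromosome 18 (10 windows) and 4.90 elsewhere. With 1 to 2 starts it was 9.48 (29 windows) against 5.58, and with 3 to 5 starts 21.9 (17 windows) against 7.83. With 6 to 9 starts it was 19.8 (13 windows) against 11.9, and with 10 or more starts 30 (5 windows) against 22.4. The ratio of means was thus 1.39, 1.70, 2.79, 1.66 and 1.34 over these classes. The last class has no upper limit. Chromosome 18 windows in it held 10 to 14 starts, and windows elsewhere were not matched to that range. Among the autosomes with at least 3 windows in a class, 3 of 18, 3 of 20, 1 of 20, 0 of 21 and 2 of 21 had a higher mean than chromosome 18.

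The short arm was denser than the long arm. It held 297 peaks, or 19.2 per Mb (17 to 21.5), and 70 coding genes, or 4.52 per Mb. The long arm held 850 peaks, or 14.3 per Mb (13.4 to 15.3), and 200 coding genes, or 3.37 per Mb. The ratio of peak densities was 1.34 (1.17 to 1.53). Among the 50% of KAS peaks with the higher fold, it was 1.16 and its interval (0.932 to 1.44) included 1.

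In 5 Mb steps from the short-arm end, the first 3 steps were alike in density. They held 93, 90 and 106 peaks (18.6, 18 and 21.2 per Mb). DLGAP1, LPIN2 and TGIF1 led the first step with 29, 5 and 5 peaks. PIEZO2, which encodes a mechanically gated ion channel, led the third with 8, followed by SPIRE1 with 7. The arm part of the step from 15 to 20 Mb is only 0.5 Mb long and held 8 peaks.

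Among steps with over 4 Mb of arm, the densest was the first of the long arm, from 20 to 25 Mb, with 142 peaks in 4.1 Mb, or 34.6 per Mb (29.2 to 40.8). The genes with most peaks there were SLC35D4 (11), GREB1L (10), OSBPL1A (9) and ROCK1 (7). The next step fell to 40 peaks, or 8 per Mb, with ZNF521 (5) and TAF4B (4) leading. The steps from 30 to 35 and from 35 to 40 Mb held 63 and 59 peaks (12.6 and 11.8 per Mb), and CELF4 (9) and FHOD3 (7) were the genes with most in the latter. The emptiest full step ran from 40 to 45 Mb, with 28 peaks or 5.60 per Mb (3.72 to 8.09). It holds 4 coding gene starts, and SETBP1 had 5 of its peaks.

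From 45 to 50 Mb the density was again 21.2 per Mb (106 peaks), led by KATNAL2 (12), ZBTB7C (9) and DYM (8). It was 8.80 from 50 to 55 Mb (44 peaks) and 17.2 from 55 to 60 Mb (86 peaks), where NEDD4L (13) and ALPK2 (6) led. The 3 steps that followed held 62, 40 and 47 peaks (12.4, 8 and 9.40 per Mb), led by PHLPP1 (8), DOK6 (6) and ZNF407 (8). The last full step, from 75 to 80 Mb, was the second densest of these with 121 peaks or 24.2 per Mb (20.1 to 28.9). ATP9B and NFATC1 had 8 peaks each there and KCNG2 had 7. The remaining 0.263 Mb at the end of the long arm held 12 peaks, or 45.6 per Mb with a wide interval (23.6 to 79.6).

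Steps with more genes, each counted at the low-coordinate end of its span, tended to have more peaks. Over the 15 steps with more than 4 Mb of arm, which come from the same chromosome and library, peaks per Mb and gene starts per Mb had r = 0.741 and rho = 0.809. The interval of the densest step did not overlap that of any other of these 15 steps. Median fold differed little between them, from 4.99 to 5.84. At the finer scale of 1 Mb windows, the most peaks (49) lay from 23 to 24 Mb. The windows from 3 to 4 Mb (42), from 12 to 13 Mb (41), and from 21 to 22 and from 79 to 80 Mb (40 each) came next. The longest interval without a member ran from 33564260 to 34493481 (929222 bases) and touches ASXL3, NOL4 and DTNA. The median gap between neighbouring members was 31038 bases, against 30374 on the other autosomes, even though the density was higher.

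**Figure D2:**
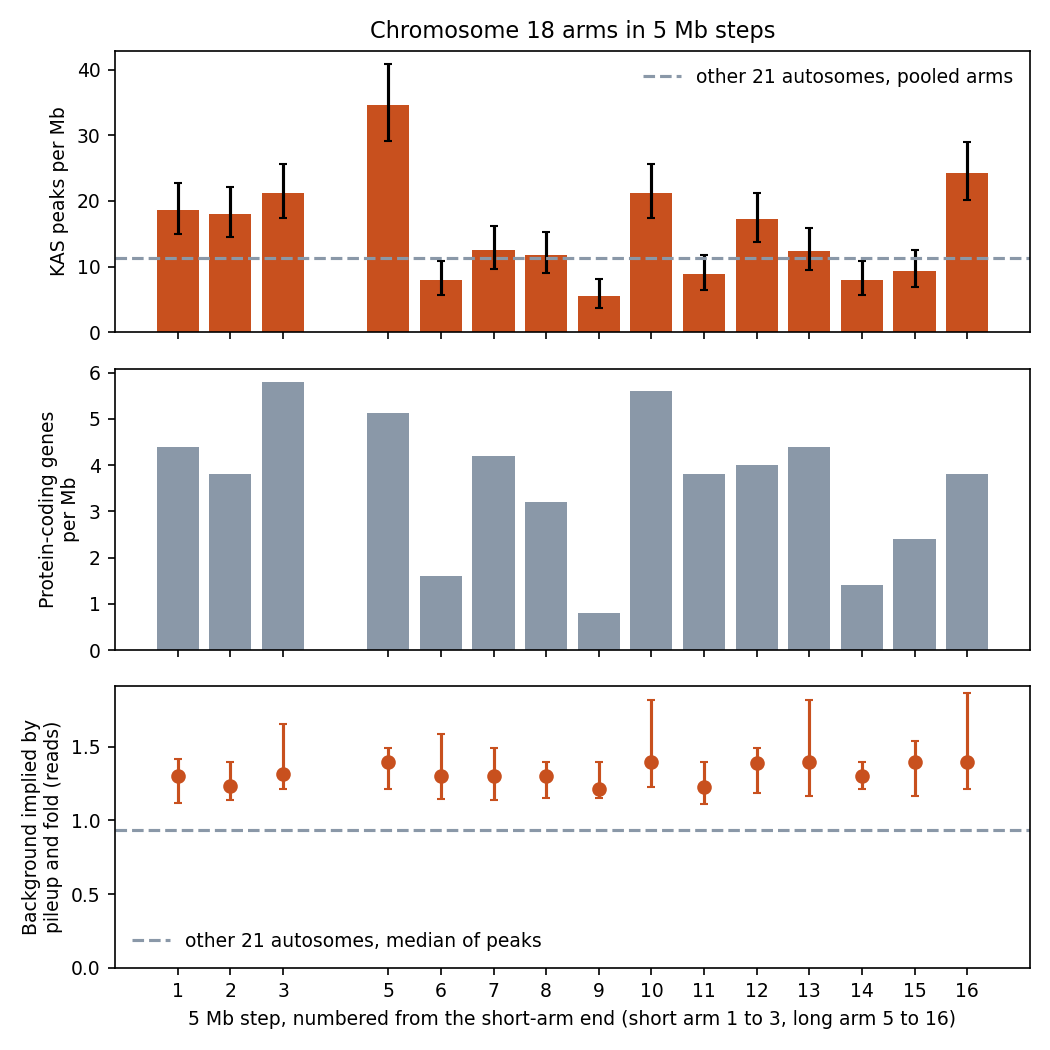
KAS peaks per Mb (top, bars with exact 95% counting intervals), protein-coding genes per Mb (middle) and median background implied by each peak's pileup and fold (bottom, points with quartiles) in 5 Mb steps along the chromosome 18 arms. Genes are counted at the low-coordinate end of their span. Steps 4 and 17, with under 1 Mb of arm, are not drawn, step 5 is the densest drawn at 34.6 peaks per Mb, and every median background drawn lies above the dashed median of the other autosomes.

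Peaks on the chromosome 18 arms were taller but not more enriched than elsewhere. The pileup at the summit, the read height that the authors' peak caller reports, had a median of 12 (6 to 109) against 10 on the other autosomes, and of these only chromosome 21 was higher, at 13. The median fold enrichment over background was 5.25 (quartiles 4.59 and 6.08) against 5.42. The median width was 252 bases against 246. On the short arm the median fold was 5.17 and on the long arm 5.34, and in the stretch left out around the centromere it was 6.79 with a pileup of 16. Divided by fold, the excess of chromosome 18 in peaks per Mb was 1.35 times below a fold of 4.5, 1.52 times from 4.5 to 5.5, 1.17 times from 5.5 to 6.5, and 1.28 times at 6.5 or above.

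A tall peak of ordinary fold implies a raised background, and this was computed as (pileup + 1) divided by fold, minus 1, where 1 is the caller's usual pseudocount. The lowest background in the whole list was 0.780 reads, which 6843 of 29675 peaks (23.1%) on the other autosomes had to within 0.005. On the chromosome 18 arms 13 of 1147 did (1.13%, 0.605 to 1.93), while the share on any other autosome was between 14.6% (chromosome 21) and 29.9% (chromosome 14). The median background was 1.33 on the chromosome 18 arms, 0.931 on 20 of the other autosomes and 1.4 on chromosome 21. The 10% of peaks with the lowest background reached up to 1.07 on chromosome 18, and up to 0.780 on each of the other 21, chromosome 21 included.

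The raised background ran along both arms. All 16 of the chromosome's 5 Mb steps with at least 10 peaks had a median background from 1.22 to 1.4. Of 508 such steps on the other autosomes, 9 (1.77%) reached that range or more, of which chromosomes 2, 4 and 21 had 2 each and chromosomes 8, 10 and 14 had 1 each. A background of 5 or more was found for 20 members (1.74%), against 2.80% of peaks on the other autosomes pooled. By autosome that share ran from 0.220% to 22.9% with a median of 0.780%, and it was above that of chromosome 18 on 5 of the other 21 (chromosomes 21, 8, 4, 20 and 2). An additional copy of the chromosome, mappability and the caller's choice of control were not measured, so their part in the background, the pileup and the peak density was not tested. Counting only peaks with a background under 1.5 times the lowest gave a density ratio of 0.426 and rank 22 of 22. This limit removes most peaks of chromosomes 18 and 21 but not of the other autosomes.

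**Figure D3:**
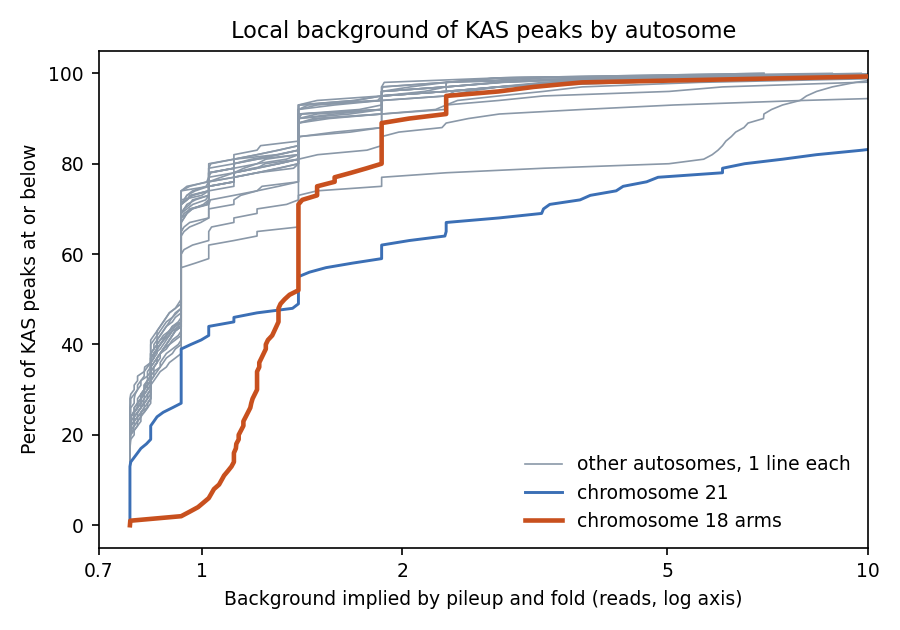
Cumulative percent of KAS peaks (vertical axis) at or below a given implied background in reads (horizontal log axis), for the chromosome 18 arms (orange), chromosome 21 (blue) and the other 20 autosomes (grey, a line each). The orange line stays near 0 where the other lines have already risen, since 1.13% of its peaks have the lowest background against 14.6% to 29.9% elsewhere.

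Of the members, 554 (48.3%, 45.4 to 51.2) overlapped a protein-coding gene, which is the gene span from start to end with its introns, since the gene table gives no exons. On the other autosomes 50.1% of peaks did so. Coding genes cover 39.3% of arm bases on chromosome 18 and 45.3% elsewhere. Inside coding genes, the members' density was 18.6 per Mb against 12.5 elsewhere, a ratio of 1.48 (1.36 to 1.62). Outside coding genes it was 13.2 against 10.4, a ratio of 1.27 (1.16 to 1.37). No annotated gene of any class was touched by 40.8% of members and 39.2% of peaks elsewhere. Within 1 kb of an end of a coding gene lay 44 members (3.84%, 2.80 to 5.12), against 4.18%.

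Counted by gene, 166 of 270 coding genes on the chromosome 18 arms (61.5%) held at least 1 peak, where the background over all 22 autosomes is 37.2%. This was the largest share of any autosome, with chromosome 22 next at 46.8% and chromosome 5 last at 24.7%. At least 5 peaks lay in 43 genes (15.9%), against 3.44% elsewhere. A peak within 1 kb of an end was found for 42 of 270 genes (15.6%), where the background is 6.79%. Genes of chromosome 18 are longer, with a median span of 51.3 kb against 24.1 kb, so they were also compared within length classes. Under 20 kb, 19.6% of chromosome 18 genes held a peak against 14.5% elsewhere. From 20 to 50 kb it was 56.6% against 42.7%, from 50 to 100 kb 66.7% against 55.9%, and from 100 to 300 kb 85.9% against 69.0%. Above 300 kb, 25 of 26 genes (96.2%) held a peak against 83.5%. In the same order, peaks per 100 kb were 2.61, 3.02, 2.61, 2.09 and 1.28 on chromosome 18, and 2.15, 2.19, 1.66, 1.16 and 0.657 elsewhere.

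DLGAP1, which encodes a scaffold protein of the postsynaptic density, held the most peaks, 29 in 959 kb (chr18:3496032-4455307), or 3.02 per 100 kb. Of these, 22 lay in the 320 kb at its low-coordinate end, and the middle and far parts of equal length held 2 and 5. Its highest fold was 8.80. NEDD4L, the gene of a ubiquitin ligase that acts on sodium channels, followed with 13 peaks in 357 kb (chr18:58044226-58401540), or 3.64 per 100 kb.

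KATNAL2, which encodes a relative of the microtubule-severing katanin, held 12 peaks (chr18:46917594-47102243), or 6.5 per 100 kb. These were of different kinds: 6 had backgrounds of 0.987 to 1.58 and pileups of 9 to 15, and the other 6 had backgrounds of 5.12 to 13 and pileups of 27 to 54. The latter were 6 of the 20 members with a background of 5 or more.

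SLC35D4, a member of a nucleotide sugar transporter family, held 11 peaks and GREB1L, a gene needed for kidney development, held 10. OSBPL1A (an oxysterol-binding protein), CELF4 (an RNA-binding splicing regulator), ZBTB7C and ZNF407 (zinc finger proteins) held 9 each. Genes with 8 were NFATC1 (a calcium-regulated transcription factor), PHLPP1 (a phosphatase of AKT), ATP9B (a phospholipid flippase), DYM, PIEZO2 and DCC (the netrin receptor). KCNG2 (a potassium channel subunit), ROCK1, BCL2 (the inhibitor of apoptosis), SPIRE1 (an actin nucleator) and SETBP1 held 7. These 20 genes held 194 peaks, all were longer than 100 kb, and their densities ranged from 0.669 per 100 kb in DCC, the longest at 1196 kb, to 6.85 in KCNG2.

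**Figure D4:**
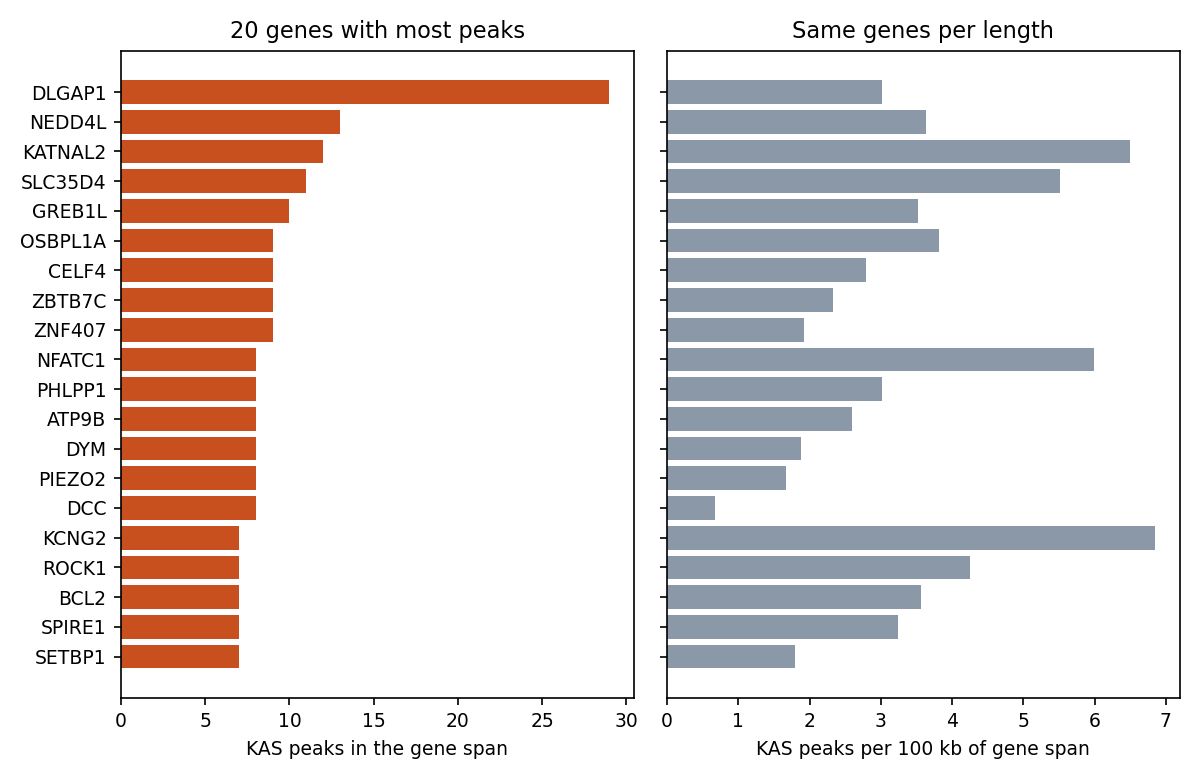
Number of KAS peaks in the 20 protein-coding genes of the chromosome 18 arms with most of them (left, bars) and the same genes' peaks per 100 kb of gene span (right, bars). DLGAP1 leads by number with 29 peaks at 3.02 per 100 kb, while KCNG2, KATNAL2 and NFATC1 are the densest of the 20 at 6.85, 6.5 and 6.00.

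Genes with at least 3 peaks were also ranked by density, a choice made after the values were seen, and the leading ones were short. PRELID3A, whose product is related to a lipid transfer protein of mitochondria, held 6 peaks in 24.3 kb (24.7 per 100 kb). Their folds ran from 3.43 to 7.51. ATP5F1A, the alpha subunit of mitochondrial ATP synthase, held 4 peaks (16.7 per 100 kb), ABHD3 6 (11.1), TGIF1 5 (10.4) and SLC66A2 5 (10.2). At the other extreme, 104 genes held no peak. Among 90 genes of at least 100 kb, 10 had none: NOL4, CDH2, RTTN, ASXL3, MAPK4, CDH7, RELCH, CDH19, CBLN2 and LOC124904304. Long genes without a peak were less frequent here than elsewhere. From 100 to 300 kb, 85.9% held a peak against 69.0% on the other autosomes, and above 300 kb 96.2% against 83.5%. The cadherin genes CDH2, CDH7 and CDH19, which encode cell adhesion proteins, are 244, 140 and 103 kb long. CDH2 had a peak within 1 kb of an end, and the cadherin gene CDH20, at 222 kb, held 1 peak.

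Gene groups of the chromosome were compared by how many of their genes held a peak. Over the 7 groups, 53 of 83 genes (63.9%) did and 13 (15.7%) had a peak within 1 kb of an end, near the 61.5% and 15.6% of all coding genes on the arms. The groups are small, and their shares are to be read against that 61.5% and against genes of like length. The length class set beside a group is mostly that of its median span. Spans within a group cross several classes, so the comparison is rough. Of 16 housekeeping and metabolic genes, 13 (81.2%) held a peak, at 3.64 peaks per 100 kb, the highest value of the 7. Their median span was 41.3 kb, and chromosome 18 genes of 20 to 50 kb had 3.02 peaks per 100 kb with a peak in 56.6%. PSMG2, a chaperone of proteasome assembly, had 6, ATP5F1A 4, and SEH1L, TXNL1 and TXNL4A 3 each. The last 3 also had a peak within 1 kb of an end, with folds of 5.17, 6.54 and 6.79. NDUFV2, RPL17 and NARS1 had none.

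Of 14 genes of blood cells, apoptosis and NF-kB signalling, 11 (78.6%) held a peak (2.36 per 100 kb). Their median span was 95.0 kb, and 66.7% of chromosome 18 genes of 50 to 100 kb held a peak, at 2.61 per 100 kb. NFATC1 had 8 with a highest fold of 11.7, BCL2 7 with a highest fold of 12.6, SETBP1 7 and RNF125 6. CD226, an activating receptor of lymphocytes, had 2 peaks and 1 at an end with a fold of 6.26. TCF4 had 1 peak in 414 kb, and PMAIP1, ADCYAP1 and MC2R had 0. ADCYAP1 encodes a neuropeptide and MC2R the receptor of corticotropin, so their place in this list is doubtful. Without them, a choice made after the values were seen, 11 of 12 genes held a peak. Leaving out genes without a peak can only raise the share, and the raised share was not set against genes of like length. Of 6 genes of SMAD and TGF-beta signalling, 5 (83.3%) held a peak (2.17 per 100 kb), with 5 in the repressor TGIF1, 4 in LDLRAD4, and 3 each in SMAD4, the shared SMAD, and SMAD2, a receptor-activated SMAD. SMAD2 had a peak at an end (5.24), and the inhibitory SMAD7 had 0 peaks. The median span of these 6 genes was 51.4 kb, so the 66.7% and 2.61 per 100 kb of genes of 50 to 100 kb apply here too.

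Of 12 zinc finger genes, 9 (75%) held a peak (1.93 per 100 kb), led by ZBTB7C and ZNF407 with 9, ZNF521 with 5 and ZNF236 with 3, and ZNF236 and ZNF397 had a peak at an end (6.41 and 4.54). The median span of the zinc finger genes was 92.4 kb, and 66.7% of chromosome 18 genes of 50 to 100 kb held a peak, at 2.61 per 100 kb. Of 15 neuronal and developmental genes, 11 (73.3%) held a peak (1.33 per 100 kb), led by DLGAP1, CELF4, PIEZO2 and DCC. Their median span was 267 kb, and 85.9% of chromosome 18 genes of 100 to 300 kb held a peak, at 2.09 per 100 kb. In this group DLGAP1 (5.88), CELF4 (5.84), DTNA (5.01), ONECUT2 (4.54) and NETO1 (5.91) had a peak at an end.

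The emptiest groups were the cadherins and the serpins, families with gene clusters on the long arm. Of 11 desmosomal and other cadherins, 4 held a peak (0.499 per 100 kb): DSG2 with 2, and DSC1, DSG1 and CDH20 with 1 each. CDH2 had a peak at an end (5.24) and none inside. Of 10 clade B serpins, only SERPINB5 held a peak, with 1 peak over the 10 genes (0.368 per 100 kb). The shares, 36.4% and 10%, lie under the chromosome's 61.5%. The serpin genes had a median span of 24.9 kb and ran from 6.70 to 52.3 kb. Chromosome 18 genes held a peak in 19.6% under 20 kb and in 56.6% from 20 to 50 kb. The cadherin genes had a median span of 50.8 kb and ran from 31.0 to 244 kb. Chromosome 18 genes of 20 to 50 kb held a peak in 56.6%, of 50 to 100 kb in 66.7% and of 100 to 300 kb in 85.9%. Neither group was matched gene by gene for length.

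The strongest member had a fold of 22.7 and a pileup of 64, and lay inside ZNF521, a zinc finger regulator of blood progenitors (chr18:25312510-25312855). The next was inside BCL2 (chr18:63198309-63199777, fold 12.6), and at 1469 bases it was also the widest. NFATC1 held the third (chr18:79417087-79418047, 11.7). The fourth, with a fold of 11.5, lay at chr18:78738305-78739440, where the nearest coding gene is SALL3, a developmental transcription factor gene 240 kb away. Those that followed lay in STARD6 (11.4), in the non-coding gene LOC105372004 (11.4), in MBP (10.9), the gene of myelin basic protein, and in intergenic DNA near SALL3 (10.4), ZNF516 (10.2) and SALL3 again (10.1). The peak of fold 10.1 shared 60 bases with the promoter window of LOC105372221, which is not a protein-coding gene. Its summit lay 365 bases before that start. Besides the BCL2 peak, the widest members were 1359 bases in GALR1, 1208 bases at chr18:77957218-77958425, 1137 bases at chr18:63091380-63092516 and 1136 bases for the peak with a fold of 11.5.

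Strong peaks gathered near the end of the long arm. Of 46 members with a fold of 8 or more, 23 lay in the last 5 Mb, which held 128 of the 1147 members. Of the 20 strongest, 11 lay there, and 8 of the 20 were in a coding gene. The 20 intergenic members nearest to SALL3, from 78152403 to 78926962, had a median fold of 7.43, against 5.25 for all members. Intergenic members near other genes were of ordinary fold, with medians of 4.90 for 17 nearest to GATA6, a developmental transcription factor gene, 5.24 for 15 nearest to ZNF516 and 5.45 for 14 nearest to GALR1.

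The thrombin pulldown lists hardly met the members. In lists 1 to 4, 3, 2, 5 and 3 of 886, 570, 790 and 882 peaks lay on the chromosome 18 arms. They overlapped 0, 0, 1 and 2 members, or 0.0654% ± 0.0835 of members (SD, n = 4 lists), against 0.543% ± 0.133 of KAS peaks on the other autosomes. The regions compared are unlike, because the arms of some other autosomes (2, 4 and 21 among them) still hold the centromere. Over the whole of chromosome 18 the lists had 25, 4, 30 and 36 peaks, so most lay outside the arms in lists 1, 3 and 4. With that limit, the share was lower on chromosome 18 in 4 of 4 lists. A two-sided exact permutation test paired by list gave p = 0.125, the smallest that 4 pairs allow. Counted over any list, it was 2 of 1147 (0.174%, 0.0211 to 0.628) against 0.762% elsewhere and 3 of 273 (1.10%) in the stretch around the centromere. The members met were chr18:15404871-15405071, next to that stretch (fold 3.34, list 4), and chr18:52792756-52792968 inside DCC (fold 4.43, lists 3 and 4). Both stood on high backgrounds, of 9.78 and 12.1 reads, and the peak in DCC had a pileup of 57 where the gene's other 7 peaks had 9 to 23.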

How the data were processed

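Per the submitters' processing notes, MACS2 2.2.7.1, BWA, bedtools 2.30.0, Picard 2.27.4 and SAMtools 1.6 were used on GRCh38.p13. Their roles and any control are not given in the sources used here. Every list covers 1 library. The authors' pileup signal is a read height, the deposited −log10 p and −log10 q are the peak caller's (lowest −log10 q 2.00), and the authors' fold is a ratio over background. Peak width in bases is as deposited. Peak numbers start at 1951, so lower numbers were not analysed here, and depth is unknown because the lists carry no library totals.

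From these were computed densities, overlaps of at least 1 shared base, and the implied background, with Poisson and Clopper-Pearson 95% intervals (Python 3.11.15, NumPy 2.4.6, pandas 2.3.3, SciPy 1.17.1, matplotlib 3.10.9). The steps were tested on simulated data. Genes came from a RefSeq table of GRCh38.p14 without strand, so gene ends of either kind were used. Windows and steps counted each gene at its low-coordinate end. The longest stretch without a coding gene is not the centromere on some autosomes (2, 4 and 21 among them), so 1 Mb windows that hold a coding gene were tried as well.

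Members and lists were chosen with earlier results of these data known. Named were the 20 genes with most peaks, the 10 strongest and 5 widest members, list genes with a peak at an end, up to 4 genes per list, the fullest and emptiest steps, and members under a pulldown peak. Genes ranked by density, genes without a peak, the leading genes of other steps, and intergenic groups were named after their values were seen. Alternatives covered fold, joining of peaks, arm limits, overlap rules and left-out lists.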

Additional observations from a re-analysis of the deposited data

How the results depend on the processing

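The chromosome 18 density ratio of 1.35 was 1.19 among the 50% of peaks with higher fold, 1.53 over the whole chromosome extent and 2.68 per coding gene. Among alternatives chosen after seeing the data, it was 1.22 with 5 Mb beside the gene-free stretch left out, and it reversed to 0.426 for peaks with a background below 1.5 times the lowest, a limit that by construction removes most chromosome 18 peaks. Joined peaks (1.37), ends left out (1.33), covered bases (1.33) and, chosen after seeing the data, windows that hold a gene (1.36), acrocentric chromosomes left out (1.35) and chromosome 19 left out (1.43) gave values near it.

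The short-to-long-arm ratio of 1.34 was 1.16 at higher fold, 1.30 with joined peaks and 1.42 with 5 Mb beside the centromere left out, all 3 chosen after seeing the data. Within 2 kb of a gene end lay 6.71% of members and 8.07% of peaks on the other autosomes. With steps shifted by 2.5 Mb, the densest step with over 4 Mb of arm was another, from 2.5 to 7.5 Mb, with 23.4 peaks per Mb in place of 34.6. The start of the long arm then fell in a step with 1.6 Mb of arm and 41.9 per Mb. The share of members under a pulldown peak was 0.174% with 50% of the member covered, and 0.0872% to 0.174% when each list was left out, the lowest without replicate 4. By summit, the coding share was 47.8%, DLGAP1 kept 29 peaks, and 53 list genes held a peak. No paired analysis was possible because the inputs, which share the pulldowns' replicate numbers, were not analysed here; only the overlap shares were paired, within each pulldown list. The KAS values rest on 1 library of unknown depth, and copy number was not measured.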

Other observations

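Of the non-coding genes on the chromosome 18 arms, 100 of 463 long non-coding RNA genes held a member peak. None of 35 microRNA genes and none of 24 small nucleolar RNA genes did, while 8 of 301 pseudogenes and 5 of 11 transcribed pseudogenes did. Shares of these classes on the other autosomes were not computed and gene length was not taken into account. The counts therefore do not show whether any class holds more or fewer peaks than its length would give. The most peaks in a long non-coding gene were 5, reached by LOC101927511, LOC105372146, LOC105372093, MIR4527HG and MIR924HG. LOC101927511 was the densest of these, with 5 peaks in 37.6 kb (chr18:11910549-11948183), or 13.3 per 100 kb, and it overlaps no coding gene. MIR924HG, the longest at 545 kb, had 0.917 per 100 kb. LOC105372146 overlaps MALT1 in part, with 1 of its 5 peaks there, and LOC105372093 overlaps SLC14A1 and SLC14A2, with 2 of its 5 peaks in them.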
